A study of Mus musculus with 12 samples.

Results

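The transcripts of 10 genes that code for heat shock proteins and chaperones of the cytosol, or for the factor that switches them on, were followed in mouse quadriceps muscle: Hspa1a, Hspa1b, Hspa8, Dnajb1, Dnaja1, Hsph1, Hsp90aa1, Hspb1, Cryab and Hsf1. A probe set, the group of probes on the array that reports a transcript, was taken as a member when the array annotation gave exactly 1 of these symbols, which found 25 of 45037 probe sets, for 9 of the 10 genes, out of 18193 genes named on the array. No probe set was matched to Hsf1 by this rule. Of the 25, 24 lay above the filter on low signal, and the remaining 1, Hsp90aa1 1441827_x_at, had signals of 1.30 to 11.7.

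Muscle came from C57Bl/6J mice treated for 6 days with AICAR at 250 mg/kg/day, with GW1516 at 5 mg/kg/day, with the combination of both, or with vehicle. AICAR enters cells and is turned into a mimic of AMP, which switches on the energy-sensing kinase AMPK, and GW1516 binds and activates PPARδ, a nuclear receptor for fatty acid use. Each of the 4 groups had 3 arrays, and each array received RNA pooled from 3 mice. The labels used here state no allele or transgene for any group, give no age, and do not say whether pools had mice in common, so each p-value reflects how much these pools varied.

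Chaperones of the HSP70 family bind unfolded stretches of other proteins and release them in cycles driven by ATP. J proteins deliver the client and start the cycle, nucleotide exchange factors end it, and HSP90 takes on clients at a later stage of folding. Small heat shock proteins hold unfolding proteins without using ATP, and in muscle they sit on the contractile apparatus under load. The transcription factor HSF1, held inactive by chaperones in unstressed cells, drives many of these genes through heat shock elements, which are arrays of inverted GAA units.

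Promoter windows from RefSeq (build GRCm38.p6) ran from 250 bases before to 50 bases after a gene's start and were found for 6 of the 10 genes. They were searched on both strands for a pair of inverted units, GAANNTTC or TTCNNGAA, each its own reverse complement, and for 3 units, GAANNTTCNNGAA, which reads TTCNNGAANNTTC on the other strand and contains the shorter motifs. A gene can have several windows, and these 6 genes had 10. The pair was present in 6 of the 10, from Hspa1a, Hspa1b, Hspb1, Dnaja1 and Hsph1, and 15.1% of all 32851 windows held it. The 3-unit motif was found in 2 of the 10, which are overlapping windows of Hsph1, and in 0.603% of all windows. The windows of Dnajb1 held no match, which says only that these letters are not in them. The following sequences are shown because Hspa1a and Hspa1b are near copies of each other and because all carry a match, given in capitals. The first 3 are the 250 bases before the start, and the last is 30 bases after it, each on the gene's own strand.
Hspa1a, chr17:34972157-34972406, minus strand: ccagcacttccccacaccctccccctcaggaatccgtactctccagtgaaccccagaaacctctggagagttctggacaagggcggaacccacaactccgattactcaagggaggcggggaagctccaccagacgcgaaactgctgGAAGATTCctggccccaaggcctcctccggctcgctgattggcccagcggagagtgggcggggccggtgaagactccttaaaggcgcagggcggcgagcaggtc
Hspa1b, chr17:34959239-34959488, minus strand: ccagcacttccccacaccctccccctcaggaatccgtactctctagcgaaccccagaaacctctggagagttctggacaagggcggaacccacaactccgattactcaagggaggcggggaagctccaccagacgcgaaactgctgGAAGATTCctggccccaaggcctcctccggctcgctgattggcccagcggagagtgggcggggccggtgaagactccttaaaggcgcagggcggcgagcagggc
Hspb1, chr5:135887669-135887918, plus strand: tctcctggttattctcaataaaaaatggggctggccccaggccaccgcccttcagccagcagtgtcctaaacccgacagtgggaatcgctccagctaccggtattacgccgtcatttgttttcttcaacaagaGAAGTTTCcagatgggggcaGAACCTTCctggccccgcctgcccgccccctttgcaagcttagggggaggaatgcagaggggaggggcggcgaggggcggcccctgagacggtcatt
Hsph1, chr5:149636287-149636316, minus strand: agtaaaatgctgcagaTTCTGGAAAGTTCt
The Hspa1a and Hspa1b sequences were identical at 247 of 250 positions (98.8%), and their match lay 104 bases before the start in both. Hspb1 held 2 matches, the farther at 117 bases before the start. A match describes the sequence and is no measure of factor binding.

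The deposited values were MAS5 signals, a linear intensity for each probe set. All arrays had a trimmed mean signal of 200, and their median signals lay between 45.4 and 54.2. The muscle genes Acta1, Ckm, Myh4 and Pvalb were among the brightest probe sets, with Myh4 at 23260 to 32005. Over genes for muscle atrophy, the second GW1516 array stood apart, with a median 1.02 above the vehicle mean on the log2 scale, against 0.09 to 0.25 on the other treated arrays. Differences were taken on log2 signal and tested with limma over 27022 probe sets, with p-values adjusted over all of them by the Benjamini-Hochberg method and a call made below 0.05.

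Dnajb1, the J protein of the cytosol that works with inducible HSP70 and is itself induced by heat, stood lower on every drug-treated array than on every vehicle array. Probe set 1416755_at read 168, 174 and 221 on the AICAR arrays, 169, 129 and 151 on the GW1516 arrays, 125, 169 and 144 on the combination arrays, and 248, 252 and 225 on the vehicle arrays. The second probe set, 1416756_at, read 163, 189.5 and 214 with AICAR, 198, 181 and 149 with GW1516, 146, 178 and 188 with the combination, and 247, 247 and 243 with vehicle. The 9 treated arrays and the 3 vehicle arrays did not overlap on either probe set. The share of all probe sets with this pattern was not counted, and Dnaja1 1460179_at and Cryab 1434369_a_at showed it too. For 1416755_at the log2 difference from vehicle was -0.37 for AICAR (SE 0.17), -0.70 for GW1516 and -0.74 for the combination, with adjusted p = 0.673, 0.258 and 0.0913 by limma. For 1416756_at the differences were -0.39, -0.49 and -0.54 (SE 0.16 each), with adjusted p of 0.209 by limma for the combination. The 3 comparisons share the vehicle arrays, so they are not independent of each other, and neither are probe sets of the same gene. In RNA from whole muscle, fewer cells of a type and less RNA per cell cannot be told apart.

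Dnaja1, a farnesylated J protein that pairs with HSC70, had 3 probe sets, all of them below vehicle on average in each comparison. The brightest, 1416288_at, read 792, 688 and 877 with AICAR, 792, 633 and 814 with GW1516, 709.8, 674 and 767 with the combination, and 852, 842 and 1008 with vehicle. The AICAR arrays overlapped vehicle through replicate 3, and the GW1516 and combination arrays lay below vehicle throughout. The differences were -0.20, -0.28 and -0.33 (SE 0.12 each), and the smallest adjusted p, for the combination, was 0.333 by limma. The other probe sets differed by -0.27, -0.32 and -0.25 (1460179_at, no overlap with vehicle in any comparison) and by -0.24, -0.41 and -0.48 (1459835_s_at, overlapping in all 3). Without vehicle replicate 3 the differences were -0.12, -0.19 and -0.24 on 1416288_at, and -0.16, -0.21 and -0.14 on 1460179_at.

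**Figure D1:**
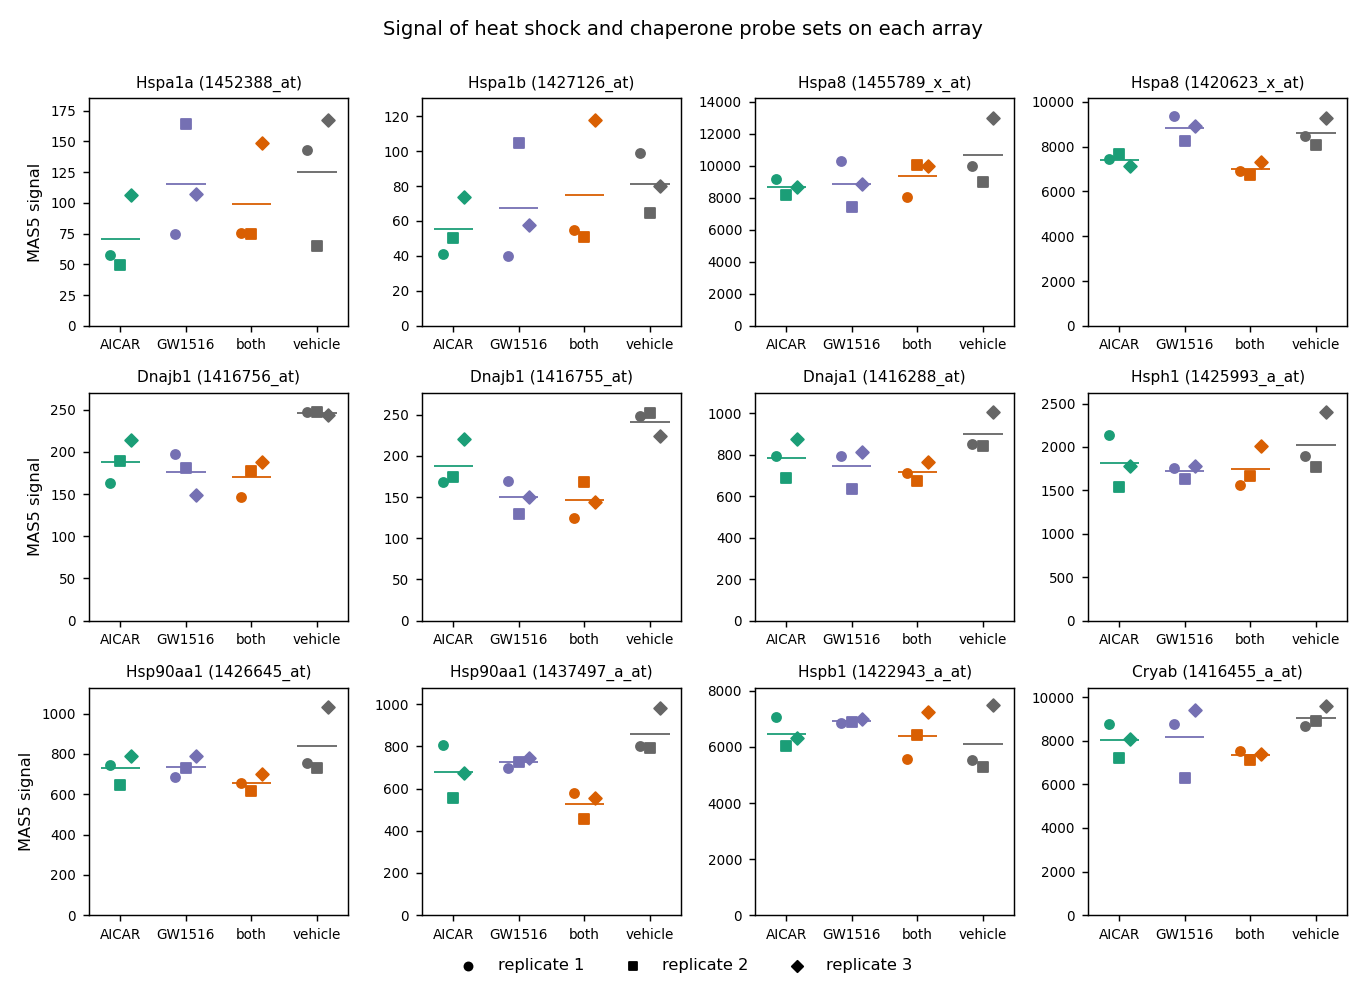
MAS5 signal (vertical axis, linear, from 0) of 12 probe sets in the AICAR, GW1516, combination ("both") and vehicle groups, 1 point per array with the marker giving the replicate number and a line at the group mean. Both Dnajb1 panels show every treated array below the vehicle arrays. Vehicle replicate 3 is the highest point in the Hspa1a, Hspa8 1455789_x_at, Dnaja1, Hsph1, Hsp90aa1, Hspb1 and Cryab panels.

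Hspa8 codes for HSC70, the HSP70 that cells make without stress. Its probe set 1420623_x_at read 7453, 7650.0 and 7133 with AICAR, 9364, 8256 and 8929.6 with GW1516, 6920.4, 6719.9 and 7323 with the combination, and 8491, 8067 and 9281 with vehicle. The AICAR and combination arrays lay below all vehicle arrays, while the GW1516 arrays lay among them. The differences from vehicle were -0.21, 0.04 and -0.30 (SE 0.08 each), with adjusted p = 0.582, 0.917 and 0.138 by limma. The combination arrays also lay below all GW1516 arrays on this probe set, at a difference of -0.34, with adjusted p = 0.184 by limma and an unadjusted 95% interval of -0.50 to -0.18.

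The other Hspa8 probe sets did not repeat that order. Probe set 1420622_a_at read 1999, 1810.1 and 2191 with AICAR, 1639, 1617 and 1773 with GW1516, 1900.1, 1472 and 1472 with the combination, and 1981, 1929 and 2136 with vehicle. Here the GW1516 and combination arrays lay below vehicle, at -0.27 and -0.33, and AICAR stood at -0.01 (SE 0.11 each). The brightest, 1455789_x_at, differed by -0.28, -0.26 and -0.18 (SE 0.14) and overlapped vehicle in all 3 comparisons. Without vehicle replicate 3 it stood at -0.13, -0.11 and -0.03. The dim 1431182_at, with signals of 57.8 to 229.6, differed by -0.40, -0.82 and -0.65 (SE 0.36). Probe sets ending in x may bind related sequences, and those ending in a report several transcripts of a gene, so the 4 do not measure quite the same RNA.

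Hspa1a and Hspa1b, neighbouring genes for the HSP70 that is made under stress, varied widely within each group. The Hspa1a probe set 1452388_at read 57.7, 49.1 and 106 with AICAR, 74.4, 164 and 107 with GW1516, 75.3, 74.4 and 148 with the combination, and 143, 65.0 and 167 with vehicle. All groups overlapped, since vehicle replicate 2 was among the low arrays and the others were high. The differences from vehicle were -0.79, -0.08 and -0.30, with SE of 0.41 and unadjusted 95% intervals of -1.68 to 0.10, -0.97 to 0.81 and -1.19 to 0.59. The sign for GW1516 was not stable, since the value was 0.18 without vehicle replicate 3, where AICAR and the combination stood at -0.52 and -0.03.

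The 3 Hspa1b probe sets were below vehicle on average in every comparison, by -0.57 to -1.49 for AICAR, -0.36 to -0.84 for GW1516 and -0.21 to -0.42 for the combination. Without vehicle replicate 3, GW1516 and the combination stood at -0.28 and -0.16 on 1427127_x_at. The value of -1.49, on 1427127_x_at, leaned on AICAR replicate 2, which read 8.39 against 54.5 and 83.2 on its group's other arrays, and it was -0.49 at the nearest to 0 over the omissions of 1 array. Of these 9 differences, only that of GW1516 on 1452318_a_at came from arrays that did not overlap, at 39.5, 76.5 and 45.6 against 102, 79.1 and 98.5 with vehicle. Because the genes are near copies, the signals of their probe sets cannot be assigned to 1 gene with certainty.

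Hspa1a had the largest SD of log2 signal among members taken by their brightest probe set, 0.62 over the 12 arrays. The Hspa1a and Hspa1b probe sets had a Pearson correlation of 0.84 over the 12 arrays, as a description. The genes outside the members most like Hspa1a over these arrays were Crocc (0.83), Nup50 (0.83), Cask (0.82), D830039M14Rik (0.82) and Zbtb20 (0.81). These are the highest values of a search over all other genes tested, on 12 arrays, and Crocc was dim, with signals of 9.45 to 52.7.

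Hsph1 codes for HSP110, a nucleotide exchange factor for HSP70. Its brighter probe set, 1425993_a_at, read 2135, 1534 and 1779 with AICAR, 1762, 1631 and 1785 with GW1516, 1563, 1664 and 2013 with the combination, and 1892, 1768 and 2408 with vehicle. All groups overlapped, and the differences were -0.16, -0.22 and -0.21 (SE 0.14), or -0.02, -0.08 and -0.07 without vehicle replicate 3. The other, 1423566_a_at, read 625, 557 and 682 with the combination against 730.2, 767 and 904 with vehicle, a difference of -0.36 without overlap (SE 0.12, adjusted p = 0.264 by limma). AICAR and GW1516 stood at -0.21 and -0.14 on it and overlapped vehicle, and without vehicle replicate 3 the values were -0.12 and -0.05, with the combination at -0.27.

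Hsp90aa1, the stress-inducible HSP90 of the cytosol, gave the smallest adjusted p of any member. Probe set 1437497_a_at read 806, 556 and 673 with AICAR, 698, 728 and 747 with GW1516, 578, 455 and 555 with the combination, and 800.1, 795 and 982 with vehicle. The 3 combination arrays lay below all vehicle arrays and all GW1516 arrays, and the GW1516 arrays lay below vehicle too. The difference of the combination from vehicle was -0.70, or 1.62-fold lower (SE 0.14, adjusted p = 0.0538 by limma), just short of the threshold. Over the omissions of 1 array its adjusted p by limma ran from 0.0341 without GW1516 replicate 2 to 0.205 without vehicle replicate 3. AICAR stood at -0.35 and GW1516 at -0.24 (adjusted p = 0.617 and 0.629 by limma). The combination differed from GW1516 by -0.46 and from AICAR by -0.35, with adjusted p = 0.318 and 0.674 by limma.

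Probe sets 1426645_at and 1438902_a_at of Hsp90aa1 also had combination arrays below all vehicle arrays, at 656, 616 and 702 against 754, 729.7 and 1035, and at 595, 513 and 529 against 666, 668 and 847. Those differences were -0.33 and -0.41 (SE 0.13 each, adjusted p = 0.353 and 0.251 by limma). Without vehicle replicate 3, the highest array on each of these 3 probe sets, the combination stood at -0.60 on 1437497_a_at, -0.17 on 1426645_at and -0.29 on 1438902_a_at. AICAR and GW1516 then stood at -0.25 and -0.14 on 1437497_a_at, -0.03 and -0.02 on 1426645_at, and 0.01 and -0.16 on 1438902_a_at. The dim 1433251_at went the other way, at 1.01, 1.38 and 0.86 (SE 0.61), with vehicle replicate 3 at 7.83 and vehicle replicates 1 and 2 at 42.0 and 59.8. Without that array it stood at 0.12, 0.49 and -0.03.

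Hspb1, the small heat shock protein HSP25 of mouse, was the exception among the bright members. Probe set 1422943_a_at read 7086, 6026 and 6307 with AICAR, 6861, 6898 and 6996 with GW1516, 5560.0, 6411 and 7234 with the combination, and 5543, 5287 and 7479.8 with vehicle. All groups overlapped, since vehicle replicate 3 was the highest of the 12 arrays and the other vehicle arrays were the lowest. The differences were 0.10, 0.20 and 0.08 (SE 0.12 each), and those of 1425964_x_at were 0.11, 0.19 and 0.03 (SE 0.11 each). Without vehicle replicate 3 they were 0.25, 0.35 and 0.23 on 1422943_a_at, and 0.27, 0.34 and 0.18 on 1425964_x_at. With arrays centred on their medians the AICAR and combination values of both probe sets lay at or just below 0, from -0.05 to 0.00.

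Cryab, the small heat shock protein αB-crystallin of heart and muscle, had bright probe sets on the other side of 0. Probe set 1416455_a_at read 8786, 7199 and 8078 with AICAR, 8774, 6298 and 9409 with GW1516, 7510.4, 7105 and 7409.6 with the combination, and 8656, 8885 and 9594 with vehicle. Only the combination arrays were below all vehicle arrays, at -0.30 (SE 0.12, adjusted p = 0.376 by limma). AICAR stood at -0.18 and GW1516 at -0.17, the second resting on GW1516 replicate 2, without which it was 0.01. On 1434369_a_at all 3 treated groups lay below vehicle, at -0.23, -0.37 and -0.40 (SE 0.14), and the dim 1435837_at overlapped throughout at -0.37, 0.01 and 0.06 (SE 0.49).

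**Figure D2:**
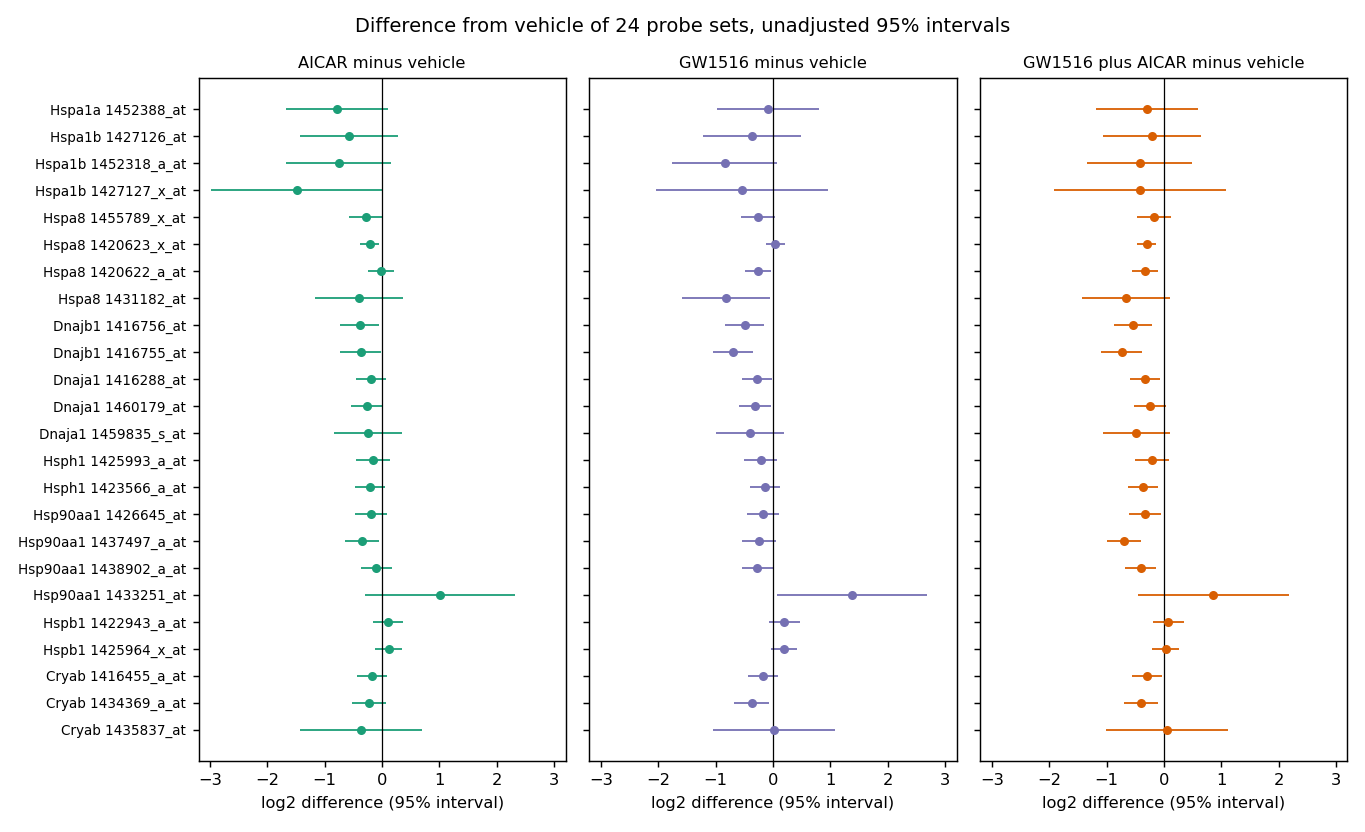
Log2 difference from vehicle (horizontal axis) of the 24 probe sets above the filter, in panels for AICAR, GW1516 and the combination, with points for limma's estimate and bars for the unadjusted 95% interval. Most points lie left of 0, the Hspb1 probe sets and the dim Hsp90aa1 1433251_at lie right of it in all panels, and the Hspa1a, Hspa1b and dim probe sets have the widest bars.

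Counted over the 24 probe sets, none was called by limma in any comparison, and most lay below vehicle. For AICAR, 21 were below 0 with a median of -0.23, against 48.2% of all 27022 probe sets and a median of 0.01. No member was called, where 3 probe sets in all were (0.0111%). At an unadjusted p below 0.05, 4 members were lower and 0 higher, where 923 of all probe sets (3.42%) were lower. The 4 became 2 without AICAR replicate 2 (3.07% of all probe sets) or without vehicle replicate 3, and 7 without GW1516 replicate 2 (4.51%). With arrays centred on their medians they became 12, and this put 10.8% of all probe sets there. The AICAR arrays lay wholly below vehicle for 5 members, against 8.69% of all probe sets. Leaving out an array can only add to such counts, for members and for all probe sets. The 5 became 9 without AICAR replicate 1 (13.8% of all probe sets), 11 without AICAR replicate 3 (13.4%) and 10 without vehicle replicate 2 (13.1%).

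For GW1516, 19 of the 24 were below 0 with a median of -0.26, against 53.7% of all probe sets and a median of -0.02. No member was called, where 11 probe sets in all were (0.0407%). At an unadjusted p below 0.05, 7 members were lower and 1 was higher, the dim Hsp90aa1 1433251_at, where 1381 of all probe sets (5.11%) were lower. The 7 became 3 without GW1516 replicate 2, where 3.69% of all probe sets were lower. They also became 3 without vehicle replicate 3, where the members' median was -0.15. The arrays lay wholly below vehicle for 10 members, against 8.14% of all probe sets.

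For the combination, 20 of the 24 were below 0 with a median of -0.33, against 51.8% of all probe sets and a median of -0.01. No member was called, where 79 probe sets in all were (0.292%), and without GW1516 replicate 2, which enters only through the shared spread, 2 members and 209 probe sets in all were. At an unadjusted p below 0.05, 11 members were lower and 0 higher, where 1734 of all probe sets (6.42%) were lower, and the 11 became 7 without vehicle replicate 3. The arrays lay wholly below vehicle for 12 members, against 9.78% of all probe sets. Taking only the brightest probe set of each of the 9 genes, 8 were below 0 in each comparison and Hspb1 was above, with medians of -0.20, -0.22 and -0.30.

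Of the 24 probe sets, 19 (79.2%) were below 0 in all 3 comparisons, where 26.0% of all probe sets were, and the shared vehicle arrays tie these comparisons together. The vehicle arrays differed among themselves on these genes. Vehicle replicate 3 was the highest of the 12 arrays for 13 of the 24 members (54.2%), against 7.01% of all probe sets. Without it, the members' medians were -0.16 for AICAR, -0.15 for GW1516 and -0.24 for the combination, with 19, 18 and 21 below 0. The members lower at an unadjusted p below 0.05 then numbered 2, 3 and 7. The share of all probe sets at this omission is not given here, so a shift of the background is not told apart from one of the members. Of the 72 differences of members from vehicle, 35 changed sign or moved by more than 1.5 times without vehicle replicate 3, 25 of them toward 0. Without vehicle replicate 2 there were 26 (10 toward 0), and without vehicle replicate 1 there were 19 (11 toward 0). Leaving out a treated array moved 2 to 15 of the 24 differences it enters. The Dnajb1 differences were not nearer to 0 without vehicle replicate 3, at -0.43, -0.75 and -0.79 on 1416755_at.

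On each array, the median of the 24 members was set against the vehicle mean on the log2 scale. It was -0.17, -0.37 and -0.14 on the AICAR arrays, -0.22, -0.30 and -0.19 on the GW1516 arrays, -0.35, -0.44 and -0.20 on the combination arrays, and -0.07, -0.10 and 0.14 on the vehicle arrays. Treated and vehicle arrays did not overlap on this reference, which the vehicle arrays themselves set. The gap between the nearest of them was small beside the spread of the vehicle arrays. Set instead against each probe set's mean over the 12 arrays, the groups overlapped, with AICAR replicate 3 at 0.110 and vehicle replicate 1 at 0.104.

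**Figure D3:**
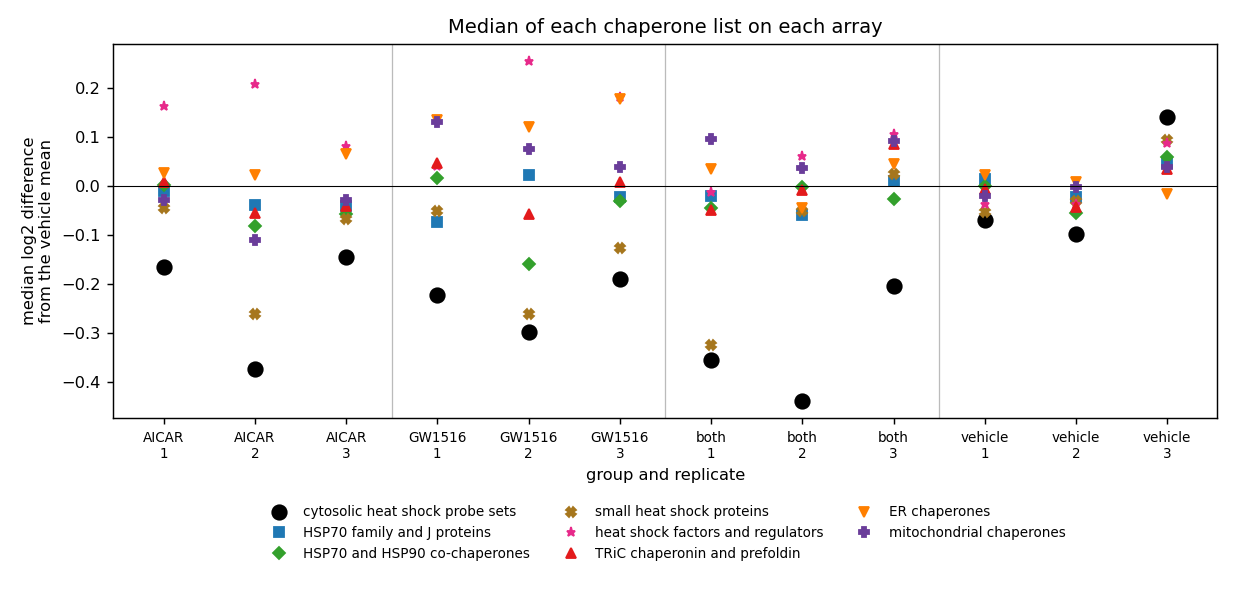
Median log2 difference from the vehicle mean (vertical axis) of the 24 heat shock probe sets (large black points) and of 7 lists of other chaperones (coloured symbols) on each of the 12 arrays (horizontal axis). The black points lie between -0.44 and -0.14 on treated arrays and between -0.10 and 0.14 on vehicle arrays, and the coloured points lie between -0.32 and 0.26. Small heat shock proteins other than the members lie within the treated range of the black points on AICAR replicate 2 (-0.26), GW1516 replicate 2 (-0.26) and combination replicate 1 (-0.32), as do the co-chaperones on GW1516 replicate 2 (-0.16).

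No member was called in the comparisons between treated groups. For the combination minus AICAR, 17 of the 24 were below 0 with a median of -0.13, against 53.9% of all probe sets and a median of -0.02. For it 1 probe set in all was called (0.0037%), and 4 members were lower at an unadjusted p below 0.05, where 4.29% of all probe sets were. For the combination minus GW1516, 16 were below 0 with a median of -0.06, against 48.3% of all probe sets and a median of 0.01, and 0 probe sets in all were called (0%). At that level 2 members were lower, Hspa8 1420623_x_at and Hsp90aa1 1437497_a_at, where 5.18% of all probe sets were. For AICAR minus GW1516, 13 were below 0 with a median of -0.01, against 44.0% of all probe sets and a median of 0.04, again with 0 called in all (0%). There 1 Hspa8 probe set was lower and 1 was higher at that level, where 3.84% of all probe sets were lower and 5.16% higher.

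The interaction was taken as the combination's difference from AICAR minus GW1516's difference from vehicle, so that it is 0 where the log2 differences of the drugs add. It was below 0 for 8 of the 24 members, with a median of 0.17, against 50.4% of all probe sets and a median of 0.00. No probe set was called in it (0%), and 0 members had an unadjusted p below 0.05 by limma, where 3.23% of all probe sets were lower at that level. The median SE of a member's interaction was 0.20, and a miss at this precision does not show that the differences add. Limma's F test over the 4 groups called 25 probe sets in all (0.0925%) and 0 members, the smallest adjusted p being 0.175 for Hspa8 1420623_x_at, 0.191 for Hsp90aa1 1437497_a_at and 0.198 for Dnajb1 1416755_at.

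Over the 36 pairs of brightest probe sets, the Pearson correlation over the 12 arrays had a median of 0.40, and 0.36 after the group means were taken out. It was highest for Dnaja1 with Cryab (0.86), and 15 pairs were above 0.5. These arrays share their scaling and groups, so this describes the 12 arrays only. Probe sets of the same gene had correlations from -0.70, between Hsp90aa1 1426645_at and the dim 1433251_at, to 0.95 for the Hspb1 pair.

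Other chaperone genes, each by its brightest probe set, gave medians nearer to 0, and none was called in any comparison. Of 19 other HSP70 family and J protein genes, 13, 10 and 12 were below 0 for AICAR, GW1516 and the combination, with medians of -0.01, 0.00 and -0.07, and Dnajb14, a J protein of the ER membrane, had the smallest F test p at 0.17, -0.32 and -0.13. Of 26 co-chaperones of HSP70 and HSP90, 17, 16 and 12 were below 0, with medians of -0.04, -0.07 and 0.01. Of 6 other small heat shock proteins, 4, 4 and 5 were below 0, with medians of -0.07, -0.09 and -0.09, and Hspb6, a small heat shock protein of muscle, stood at -0.04, -0.17 and 0.17.

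Among the co-chaperones, Fkbp5, an HSP90-binding immunophilin known as a target of glucocorticoids, had the smallest F test p. It read 1065, 1054 and 1146 with AICAR, 525, 2036 and 1005 with GW1516, 1241, 1421 and 1318 with the combination, and 381, 478 and 475 with vehicle. Every treated array was above every vehicle array, with GW1516 replicate 2 the highest and GW1516 replicate 1 the nearest to vehicle. The differences were 1.30, 1.21 and 1.58 (SE 0.32), with adjusted p = 0.313, 0.282 and 0.0586 by limma.

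Of 13 heat shock factors and regulators, 2, 5 and 6 were below 0, with medians of 0.13, 0.17 and 0.03, and Hmox1, the inducible heme oxygenase, stood at -0.52, 0.43 and -0.10. Of 15 genes of the TRiC chaperonin and prefoldin, 9, 8 and 6 were below 0, with medians of -0.03, -0.01 and 0.02, and Pfdn1, a prefoldin subunit, stood at -0.10, -0.32 and -0.35. Of 19 chaperones and stress genes of the ER, 6, 4 and 8 were below 0, with medians of 0.05, 0.07 and 0.04, and Dnajc3, an ER J protein, stood at -0.46, -0.02 and -0.56 (adjusted p = 0.0946 by limma for the combination). Of 11 mitochondrial chaperones, 7, 3 and 2 were below 0, with medians of -0.06, 0.05 and 0.06, and Hspd1, the mitochondrial HSP60, stood at -0.10, 0.01 and 0.23. Over all 12771 genes the medians were 0.01, -0.01 and 0.00.

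**Figure D4:**
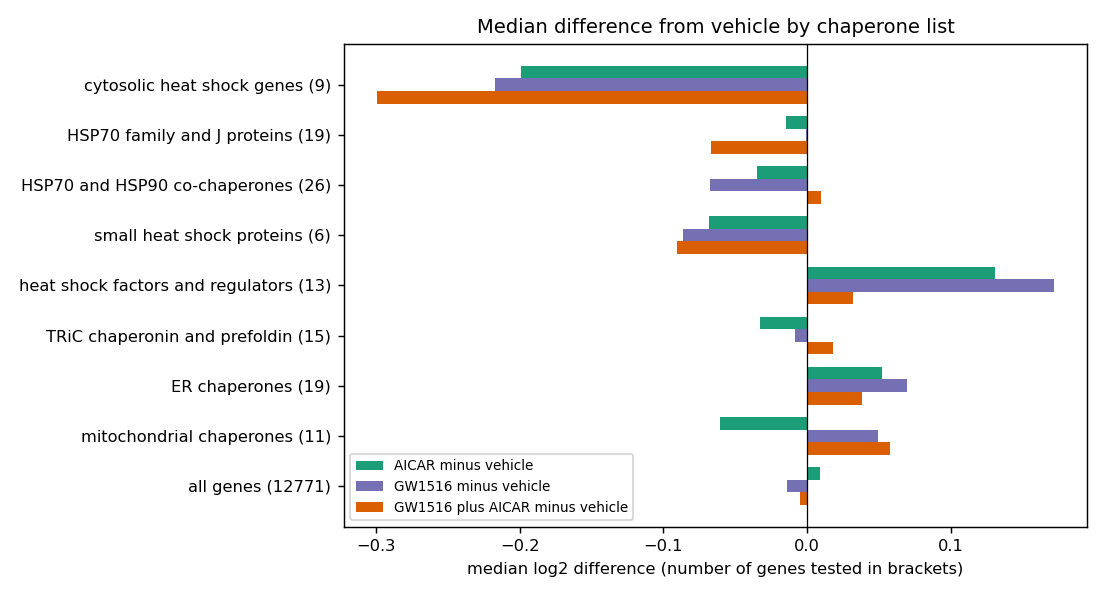
Median log2 difference from vehicle (horizontal axis) of the 9 cytosolic heat shock genes by their brightest probe set, of 7 lists of other chaperone genes and of all genes, for AICAR, GW1516 and the combination, with the number of genes tested in brackets. The heat shock genes stand at -0.20, -0.22 and -0.30, and the other lists lie between -0.09 and 0.17.

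Values of other gene lists also differed between the groups. Immediate early genes, which code for fast-responding transcription factors and their regulators, had 12, 12 and 16 of 21 below 0, with medians of -0.04, -0.06 and -0.25, where 48.0%, 52.9% and 50.9% of all genes were below 0. None was called by limma, and 7 were lower at an unadjusted p below 0.05 for the combination, where 733 of all genes (5.74%) were. Adipocyte markers, of which 13 of 16 lay above the filter, were above vehicle for 13, 12 and 12, with summed signals of 21663 to 39923 with AICAR, 18127 to 32304 with GW1516, 20007 to 36025 with the combination, and 18545 to 27499.9 with vehicle. Fast fibre genes were above vehicle for 12, 10 and 13 of 13, and none was called by limma. At an unadjusted p below 0.05, 0, 1 and 7 of them were higher, where 3.92%, 4.42% and 5.11% of all genes were. Their summed signals were 289569 to 292951 with AICAR, 267502 to 345674 with GW1516, 313116 to 315794 with the combination, and 273280 to 285237 with vehicle. None of 9 slow fibre genes, 4 red blood cell markers and 11 endothelial markers was called either, with medians of 0.18, 0.04 and 0.08 for slow fibre genes, 0.19, -0.35 and -0.02 for red blood cell markers, and -0.01, 0.03 and 0.05 for endothelial markers.

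The atrophy and FOXO genes were above vehicle for 19, 21 and 18 of 21, with medians of 0.12, 0.59 and 0.21. For GW1516, 14 of them were higher at an unadjusted p below 0.05, where 4.42% of all genes were. For the combination 2 were called higher by limma, where 20 of all 12771 genes were called higher and 13 lower. The called genes, named after their values were seen, were Foxo1, a transcription factor of fasting, at 1.59 (adjusted p = 0.0056 by limma), and Pdk4, a kinase that restrains glucose oxidation, at 1.32 (adjusted p = 0.041 by limma). Summed signals of the 21 genes were 36554 to 39441 with AICAR, 37238 to 87259 with GW1516, 39266 to 43462 with the combination, and 32672 to 32757 with vehicle. Fibroblast and matrix markers were below vehicle for 5, 11 and 10 of 11, with medians of 0.03, -0.37 and -0.19 and summed signals of 32828 to 43830 with AICAR, 16969 to 35800 with GW1516, 31268 to 32782 with the combination, and 31142 to 41563 with vehicle. Macrophage and leukocyte markers were below vehicle for 4, 11 and 2 of 13, with medians of 0.22, -0.24 and 0.10. By array, the GW1516 medians for replicates 1, 2 and 3 were 0.09, 1.02 and 0.22 for atrophy and FOXO genes, -0.22, -1.21 and 0.02 for fibroblast markers, and -0.25, -0.64 and 0.18 for macrophage markers, so replicate 2 was the farthest from 0 on each list. The part of any of these lists in the values of the heat shock genes was not tested.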

How the data were processed

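Per the submitters' processing notes, the authors made the deposited intensity values with MAS5, 1 linear signal per probe set, and its version is not given in the sources used here. Each array's trimmed mean of 200 was checked on the values. Control probe sets (64 of 45101) were left out, signals below 1 (3531 of 540444 values) were set to 1, log2 was taken, and the lowest 40% by mean, under a signal of 28.2, were dropped. Gene symbols came from a platform annotation dated 2016, and the matched members kept their symbols in RefSeq. All 12 arrays entered 1 fit in limma 3.58.1 (R 4.3.3), with group means, moderated variances that follow signal level (8 residual and 6.04 prior degrees of freedom), 7 two-sided contrasts and the F test. Precision is limited by the number of arrays, and the median SE of a member's difference was 0.14 on the log2 scale. The code was tested on simulated data.

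The members and the 16 gene lists were chosen with earlier results of these data known. The genes to name were all members, the gene of smallest F test p in each chaperone list without a call, and the 5 genes most correlated with the most variable member. In those lists each gene entered by its brightest probe set. The alternatives are given with their effect in the closing section, and the counts below 0, at an unadjusted p and without overlap were chosen after seeing the data. Replicate numbers in the titles were not taken as pairs. Figures were drawn with matplotlib 3.10.9.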

Additional observations from a re-analysis of the deposited data

How the results depend on the processing

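For AICAR and GW1516 against vehicle and for the 3 direct comparisons and the interaction, the count of members called by limma stayed at 0 under every alternative run, as did the F test except with median centring, which gave 1. For the combination against vehicle it was 0 as reported, 1 after quantile normalization, 2 with median centring, 1 with a pseudocount of 32, 1 with a filter of 60%, 1 with array weights, and 0 to 2 over the omissions of 1 array. Those calls were Hsp90aa1 1437497_a_at, Hspa8 1420623_x_at or Dnajb1 1416755_at. The 2 calls without GW1516 replicate 2 (adjusted p = 0.0341 for Hsp90aa1 1437497_a_at and 0.0488 for Hspa8 1420623_x_at by limma) arose through the shared spread, since that array is in neither group. Median centring put the median of all probe sets at -0.11 for AICAR and -0.09 for the combination, against 0.01 and -0.01 without it, and the members' medians at -0.35 and -0.41.

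Members lower at an unadjusted p below 0.05 for AICAR numbered 4 as reported, beside 3.42% of all probe sets, a share given in brackets below. They numbered 12 with centring (10.8%), 1 of 9 with the brightest probe set of each gene (3.05%) and 2 without the variance trend (2.83%). With array weights there were 9 (5.42%), with the replicate block 7 (3.28%), and with only the groups compared 8 (share not given here). Over the omissions there were 2 to 7, with 7 without GW1516 replicate 2 (4.51%). Those without overlap, 5 beside 8.69% of all probe sets, numbered 11 with centring and 1 of 9 with the brightest probe sets. Over the omissions they numbered 5 to 11, and omitting an AICAR or vehicle array put 13.1% to 14.1% of all probe sets there. For counts without overlap, the share of all is given as reported and for the omissions only. The brightest probe sets gave 8 below 0 in each comparison. For GW1516 the unadjusted count of 7 (5.11%) became 2 of 9 with the brightest probe sets (5.16%). It was 2 without the trend, where the share of all probe sets was also below that as reported. Over the omissions it was 3 to 9, with 3 without GW1516 replicate 2 (3.69%). The GW1516 count without overlap became 2 of 9 with the brightest probe sets. For the combination the unadjusted count of 11 (6.42%) became 4 of 9 with the brightest probe sets (5.79%) and 7 to 12 over the omissions. It was 12 without GW1516 replicate 2 (7.63%) or combination replicate 3 (5.45%). The count without overlap became 4 of 9 with the brightest probe sets.

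Signs turned for values near 0 and for some farther from it. As reported, Hsp90aa1 1433251_at stood at 0.86 and Hspa1b 1427126_at at -0.21 for the combination, and Cryab 1435837_at at -0.37 for AICAR. With centring, Hspb1 1422943_a_at stood at -0.018 for AICAR and -0.000419 for the combination, Hspb1 1425964_x_at at -0.0045 and -0.047, and Cryab 1435837_at at -0.022 for the combination. Cryab 1435837_at also stood at -0.040 for the combination after quantile normalization, and for GW1516 at -0.000776 with the pseudocount and -0.15 with array weights. Over the omissions of 1 array the AICAR differences ran from -0.082 to 0.056 for Hspa8 1420622_a_at, -0.66 to 0.12 for Cryab 1435837_at and -0.17 to 0.021 for Hsp90aa1 1438902_a_at. The GW1516 differences ran from -0.28 to 0.0079 for Cryab 1416455_a_at, -0.0064 to 0.095 for Hspa8 1420623_x_at, -0.26 to 0.28 for Cryab 1435837_at and -0.50 to 0.20 for Hspa1a. Those of the combination ran from -0.017 to 0.23 for Hspb1 1422943_a_at, -0.050 to 0.18 for Hspb1 1425964_x_at, -0.59 to 0.012 for Hspa1b 1427126_at, -0.030 to 1.44 for Hsp90aa1 1433251_at and -0.27 to 0.44 for Cryab 1435837_at. Where no construction of an alternative shows it, the cause was not tested.

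Same-numbered arrays did not deviate together (18 pairs, correlations of -0.09 to 0.05). With the replicate block 0 members were called, the smallest adjusted p for the combination was 0.0562 by limma, and 0, 7 and 45 probe sets in all were called for AICAR, GW1516 and the combination, against 3, 11 and 79 without it. Over all settings, the probe sets called in all ran from 0 to 34 for AICAR, 0 to 50 for GW1516, and for the combination from 0 without the trend to 209 without GW1516 replicate 2. Dim probe sets had wide errors, and 3 arrays a group limit what could be called.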
